A study of Homo sapiens and Mus musculus with 24 samples.

Results

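Opposite-strand (os) lncRNAs are mouse noncoding genes named after a gene that they overlap or adjoin on the other DNA strand, so that Cep83os lies opposite Cep83. A gene was taken as a member when its GENCODE symbol ended in os, or in os and 1 digit, when it was not protein-coding, and when its mean level was at least 0.5 CPM (counts scaled to a common library total) in nonirradiated Neuro2a or in nonirradiated HippCulture. Of 53715 mouse genes in the files, 292 were noncoding genes with such a symbol, and 159 of them were members. Another 130 were below the limit, and 3 genes that carry the symbols Dlx6os1 and Hand2os1 were left out by name. The 2 members just above the limit were Pitpnm2os2 (0.507 CPM) and Dnah2os (0.507 CPM), and the 2 genes just below it were Smc2os (0.490 CPM) and Dnmt3aos (0.487 CPM).

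HippCulture is a primary culture of hippocampal neurons from E16.5 embryos of C57/BL6NCr mice, and Neuro2a is an established mouse line of neuroblastoma origin. The culture had been treated with AraC to remove glial cells. In both, cells were placed in ice-cold buffered saline and irradiated with UV (UPA-seq) or left nonirradiated (RNA-seq), and RNA was taken from the aqueous phase of a TRIzol extraction that included a heating step. Each of the 4 groups had 3 samples. The study calls its replicates biological, but neither the labels nor the methods say whether they came from separate cultures, and p-values measure the spread between these samples.

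UV light joins RNA covalently to proteins that touch it, and protein-bound RNA leaves the aqueous phase at phenol-chloroform extraction. A lower normalized count after UV therefore means fewer reads of that RNA relative to the other RNAs of the library. The counts alone do not tell RNA lost from the aqueous phase apart from crosslinked RNA that was reverse transcribed less or from a lower level in the cell. Natural antisense transcripts are transcribed from the strand opposite another gene. They are often divided by geometry into pairs that start next to each other and run apart (head to head), pairs whose ends meet (tail to tail), and transcripts that lie within the body of the partner. Head-to-head pairs often share a promoter rich in CpG dinucleotides, and antisense transcripts are commonly nuclear and of low abundance.

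The mouse libraries held between 6910907 and 9163323 counts on genes. The factors of TMM, the scaling of edgeR that sets the bulk of genes to no change, were 1.504 to 1.525 in nonirradiated and 0.642 to 0.689 in irradiated Neuro2a, and 1.10 to 1.29 and 0.719 to 0.904 in HippCulture. Scaling by library totals alone moved the median log2 ratio of all genes by -1.18 in Neuro2a and by -0.54 in HippCulture, so every change below is relative to the bulk of genes. All 8 neuronal markers were at 0.5 CPM or more in nonirradiated HippCulture and 4 of 8 in Neuro2a, where Slc17a7, Gad1 and Gad2 were close to 0. Of the 6 sympathetic neuroblastoma markers 5 reached that level in Neuro2a and 0 in HippCulture. HippCulture also held all 5 astrocyte markers, with a summed level of 722 to 862 CPM in nonirradiated and 706 to 915 CPM in irradiated samples, and all 6 markers of the oligodendrocyte lineage (101 to 119 and 76.8 to 117 CPM). Its neuronal markers summed to 3308 to 3697 CPM before and 1699 to 2220 CPM after irradiation. These sums are CPM without TMM, and the neuronal markers did not move alike. Map2 had 1487 to 1779 CPM before and 504 to 725 after UV, and Slc17a7 had 132 to 152 and 138 to 146. In such bulk samples fewer cells of a type, less RNA per cell and a loss of single transcripts cannot be told apart by a sum. The part of the cell mixture in the values below was not tested.

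The 159 members comprised 141 genes of the antisense class, 7 lincRNAs, 7 processed transcripts, 2 bidirectional promoter lncRNAs, 1 transcribed unitary pseudogene and 1 gene of the TEC class, which awaits experimental evidence. They were paired with 138 partner genes, of which 18 had several members. By the coordinates in the files (mm10), 70 members lay inside the partner, 42 overlapped it head to head, 18 stood head to head with the bodies apart, 19 overlapped it tail to tail, 5 stood tail to tail with the bodies apart, and 5 enclosed the partner. The median member had 1432 exon bases in 3 exon blocks, with a range from 265 to 11884 bases.

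Reads were counted for every gene whose exons they overlapped and with no option for strand. Exon bases that 2 genes share therefore add reads to both, and reads from an unspliced partner that cross an exon of the member are counted for the member as well. Exon bases were shared with the partner by 108 members and only with another gene by 11, with a median share of 24.8% of the exon bases among the members that shared any. The other 40 members shared none. This limit applies to every member that shares bases with another gene, and it also applies to the intron reads of members inside a partner.

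The sequences between the start sites show how close the head-to-head pairs begin. They are given for the members with both bodies apart, at most 300 bases between the starts, and a called change after UV or a called difference from the partner. Each is read 5′ to 3′ toward the partner gene from the GRCm38.p6 (mm10) assembly, begins with the base next to the start of the lncRNA, which runs the other way, and has its CG dinucleotides in capitals.
Cep83os and Cep83, chr10:94688577-94688653, plus strand: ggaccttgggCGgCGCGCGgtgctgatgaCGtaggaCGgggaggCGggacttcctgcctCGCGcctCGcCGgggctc
Tmem147os and Tmem147, chr7:30729541-30729578, minus strand: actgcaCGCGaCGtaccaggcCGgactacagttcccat
Med9os and Med9, chr11:59948143-59948205, plus strand: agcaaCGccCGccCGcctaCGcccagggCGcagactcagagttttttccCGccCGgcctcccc
Brip1os and Brip1, chr11:86201194-86201369, minus strand: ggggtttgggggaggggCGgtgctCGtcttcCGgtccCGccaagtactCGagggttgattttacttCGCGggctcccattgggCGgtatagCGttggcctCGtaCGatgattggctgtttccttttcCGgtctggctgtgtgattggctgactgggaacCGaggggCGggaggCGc
Stamos and Stam, chr2:14073935-14074097, plus strand: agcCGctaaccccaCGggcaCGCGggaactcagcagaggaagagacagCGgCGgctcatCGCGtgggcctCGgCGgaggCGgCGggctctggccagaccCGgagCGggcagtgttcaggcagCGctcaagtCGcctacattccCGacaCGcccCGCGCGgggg
Fam120aos and Fam120a, chr13:48968018-48968286, minus strand: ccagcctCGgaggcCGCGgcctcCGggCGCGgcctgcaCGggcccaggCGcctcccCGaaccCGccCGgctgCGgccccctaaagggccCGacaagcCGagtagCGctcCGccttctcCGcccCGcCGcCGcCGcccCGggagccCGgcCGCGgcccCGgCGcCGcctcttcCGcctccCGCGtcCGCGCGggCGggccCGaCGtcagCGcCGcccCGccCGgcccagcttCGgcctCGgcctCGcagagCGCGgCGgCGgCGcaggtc

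The 77 bases between Cep83os and Cep83 held 11 CG dinucleotides and were 75.3% G or C. The 38 bases between Tmem147os and Tmem147 held 4, and the 269 bases between Fam120aos and Fam120a held 49. Over the 300 bases from 250 before to 50 after the annotated start, a start was counted as CpG-rich where at least 50% of the bases were G or C and CG dinucleotides reached at least 0.6 of the number expected from the base composition. By this measure 13 of 18 members head to head with bodies apart (72.2%) and 23 of 42 members overlapping head to head (54.8%) had a CpG-rich start, against 4 of 70 members inside the partner (5.71%). The share was 41.6% over 21870 protein-coding genes, 18.3% over 2663 other antisense genes and 7.54% over 5330 lincRNA genes. The partners' starts were CpG-rich in 86 of 138 cases (62.3%).

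As a description of abundance, levels were expressed as CPM per kilobase of exon in nonirradiated cells. Genes named here for their level alone were picked after their values were seen. In Neuro2a Epb41l4aos (40.7 ± 9.75, SD, n = 3) and Rbm3os (39.5 ± 4.56) were the most abundant, and they differed by less than their spread. Sardhos followed at 23.2 ± 3.62, although 70.9% of its exon bases lay in another gene, and then Cep83os at 12.9 ± 1.85 and Brip1os at 11.9 ± 0.596, which overlapped in their spread. In HippCulture the order was different, with Plxna4os3 (15.5 ± 2.59), Grin1os (13.99 ± 0.369) and Rbm3os (13.6 ± 1.00) at the top and within each other's spread. Cep83os was at 1.42 CPM per kilobase there. Of the 159 members 97 reached 0.5 CPM in both cell types, 32 in Neuro2a but not in HippCulture, and 30 in HippCulture but not in Neuro2a.

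To examine which os lncRNAs had fewer or more reads after UV, irradiated and nonirradiated samples were compared in each cell type with edgeR's quasi-likelihood test and Benjamini-Hochberg adjustment over all genes with at least 0.5 CPM in the nonirradiated samples. In Neuro2a 129 members were tested, of which 26 decreased (20.2%) and 14 increased (10.9%) at an adjusted p under 0.05. Over all 17425 genes 33% decreased and 28.9% increased. In HippCulture 26 of 127 members decreased (20.5%) and 15 increased (11.8%), against 25.9% and 26.1% of 18488 genes. The median log2 ratio of the members was -0.09 in Neuro2a and -0.24 in HippCulture, beside -0.14 and -0.04 for all genes, -0.32 and -0.13 for other antisense genes and -0.49 and -0.38 for lincRNAs. Counts were low: the median member tested had a mean of 16.3 counts per nonirradiated library in Neuro2a and 22 in HippCulture, where the median over all genes tested was 110 and 98. Members with no call had a median of 13.3 counts in Neuro2a and 16.7 in HippCulture, and few counts limit which changes of such a gene were detectable. The filter looked at nonirradiated samples alone, which favours decreases among genes just above it. Its rule was the same for all genes, but the median member lies closer to the limit than the median gene. This may weigh more on the members, and its part in the shares was not tested.

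Without the test, every irradiated sample was below every nonirradiated one for 39 of 129 members in Neuro2a (30.2%), where 37% of all genes showed this, and above for 19 (14.7%, with 30.4% of all genes). In HippCulture 35 of 127 members were lower in every irradiated sample (27.6%, with 30.8% of all genes) and 19 were higher (15.0%, with 29.3% of all genes). Leaving out the third irradiated sample of HippCulture reduced the members called decreased there from 26 to 16.

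Among the largest decreases, Ppp2r2cos, Plxna4os2, Nrg3os, Rapgef4os1 and Nr6a1os lie inside the partner and share no exon base with any gene. Intron reads of the partner that cross their exons are still counted for them, and the part of such reads was not tested. Ppp2r2cos, inside the gene of a brain regulatory subunit of protein phosphatase 2A (chr5:36873595-36876879, minus strand), had 1.56, 1.17 and 2.14 normalized CPM in nonirradiated Neuro2a and 0 counts in all 3 irradiated samples. With 3 counts over the 3 irradiated libraries as the limit that a count of 0 allows, it was at least 8.17-fold lower (edgeR, adjusted p = 3e-04). In HippCulture it went from 3.58, 3.51 and 4.37 to 0.995, 1.01 and 1.03 normalized CPM, a log2 ratio of -1.90 ± 0.30 (SE, edgeR adjusted p = 2.3e-05). The groups did not overlap in either cell type. Plxna4os2, inside the semaphorin receptor gene Plxna4, had 3.68, 4.13 and 3.88 normalized CPM in nonirradiated HippCulture and 0.995, 0.403 and 1.42 after UV, a log2 ratio of -1.93 ± 0.32. In Neuro2a its ratio was -2.47 ± 0.78 from 12, 8 and 10 counts down to 1, 0 and 1, and this call was lost without the second irradiated sample (edgeR adjusted p = 0.052). The call was also lost with the test of DESeq2 (adjusted p = 0.055).

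Nrg3os, inside the gene of the ErbB4 ligand neuregulin 3, had 2.23, 2.38 and 2.39 normalized CPM in HippCulture before and 1.28, 0 and 0.258 after UV (log2 ratio -2.04 ± 0.50, or -3.77 without the first irradiated sample). Macrod2os2, inside the gene of an ADP-ribose hydrolase, had 3.58, 2.07 and 2.98 before and 1.14, 0.201 and 0.774 after (-1.91 ± 0.40), with 30.1% of its exon bases shared with Macrod2os1. Neither was detected in Neuro2a, where all 6 libraries had 0 counts of each. Rapgef4os1, inside the gene of the cAMP-activated exchange factor Epac2, fell from 5, 6 and 5 counts to 1, 0 and 1 in HippCulture (log2 ratio -2.24 ± 0.82), and its call did not hold when any 1 of 5 of the 6 samples was left out (highest edgeR adjusted p = 0.073). It did not hold with the test of DESeq2 either (adjusted p = 0.13). These small counts set wide errors, although each of the 3 genes was lower in every irradiated sample. Their partners also had negative log2 ratios in HippCulture, -0.73 for Nrg3, -0.43 for Macrod2 and -0.31 for Rapgef4. Of the 3 differences from the partner only that of Macrod2os2 was called.

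In Neuro2a the other large decreases were in Nr6a1os, Speer4cos, Srrm4os and Vax2os. Nr6a1os, inside the gene of an orphan nuclear receptor, had 10, 6 and 2 counts before and 0 in all 3 irradiated samples, at least 2.34-fold lower. Speer4cos, which encloses Speer4c, had 10, 13 and 10 counts before and 0, 0 and 1 after, and its fitted log2 ratio of -3.47 became -6.09 without the third irradiated sample. Srrm4os overlaps the tail of Srrm4, the gene of a neural splicing regulator of microexons, and fell from 2.88, 2.62 and 3.12 to 0.186, 0.616 and 0.205 normalized CPM (log2 ratio -3.06 ± 0.46, edgeR adjusted p = 5.6e-05). Vax2os, head to head with a homeobox gene of the ventral eye, fell from 14 counts in each nonirradiated library to 0, 2 and 1 (-2.41 ± 0.68). Vax2 itself had a log2 ratio of 0.35 ± 0.22 and was not called (edgeR adjusted p = 0.18). With library totals it was called decreased (-0.83, edgeR adjusted p = 0.0037). Other partners had negative log2 ratios in Neuro2a: -2.95 for Speer4c, -1.28 for Nr6a1, -0.96 for Plxna4, -0.95 for Srrm4 and -0.37 for Ppp2r2c. The call of Speer4c was lost without the first or the second irradiated sample. Alkbh3 had 0.51. Alkbh3os1 was called in both cell types, with log2 ratios of -1.604 ± 0.54 and -1.83 ± 0.66. It was lost in Neuro2a without the third nonirradiated or the second irradiated sample and in HippCulture without the second nonirradiated, the second or the third irradiated sample (highest edgeR adjusted p = 0.098). Both of its calls were lost with the test of DESeq2, at adjusted p of 0.078 and 0.081.

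Rab10os, for which the study had made a FISH probe, overlaps the tail of Rab10, the gene of a small GTPase of vesicle transport, on chr12:3235504-3250377 (plus strand). The primers of the probe matched exons of Rab10os and show which stretch it covers:
forward primer, chr12:3235857-3235877: tttcacgtgagtgacacttgg
reverse primer, chr12:3238967-3238986, minus strand: cagcgatgtcacttcctgtc
The outer ends lay 3130 bases apart on the genome. Rab10os had 29.6, 23.6 and 23.6 normalized CPM in nonirradiated and 14.1, 14.4 and 16.8 in irradiated Neuro2a, a log2 ratio of -0.76 ± 0.14 (edgeR adjusted p = 2.8e-04). In HippCulture it had 36.0, 33.2 and 33.1 before and 24.0, 19.1 and 21.4 after (-0.65 ± 0.11, edgeR adjusted p = 3.8e-05). Rab10 fell as well, by 0.47 ± 0.09 in Neuro2a and 0.70 ± 0.08 in HippCulture on the log2 scale, and the difference between the 2 genes was not called in either. They share 143 of the 6144 exon bases of Rab10os.

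The increases depended on the scaling: with library totals in place of TMM only 2 members were called increased in Neuro2a, Epb41l4aos and Ict1os, and 5 in HippCulture. Among the increases, Epb41l4aos had the largest log2 ratio in both cell types. It is a lincRNA-class gene that lies past the end of Epb41l4a, a gene of the FERM family of membrane-cytoskeleton linkers, shares no exon base with another gene and holds the snoRNA gene Gm23639. Its normalized CPM was 8.40, 12.8 and 13.5 in nonirradiated and 35.0, 51.3 and 61.1 in irradiated Neuro2a (log2 ratio 2.09 ± 0.20, edgeR adjusted p = 7.3e-07). In HippCulture it was 3.10, 3.00 and 2.39 before and 6.11, 7.05 and 7.61 after (1.29 ± 0.21, edgeR adjusted p = 2.8e-05). The groups stood apart in both.

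Other increases ran alongside the partner. Tomm6os, head to head with the gene of a subunit of the mitochondrial outer membrane translocase, went from 10.3, 9.72 and 11.03 to 20.9, 24.6 and 23.9 normalized CPM in HippCulture (1.15 ± 0.13) and rose by 1.44 ± 0.21 in Neuro2a. Tomm6 rose by 1.39 ± 0.11 in HippCulture and 1.65 ± 0.16 in Neuro2a. Of the exon bases of Tomm6os 51.3% were shared, among others with Tomm6 and with Prickle4, which rose by 0.90 ± 0.18 in HippCulture. Hopxos, inside Hopx, the gene of a small homeodomain protein, rose in HippCulture from 11.6, 10.0 and 12.2 to 21.7, 27.6 and 22.5 normalized CPM (1.07 ± 0.13), and Hopx rose there by 1.01 ± 0.10. Kcnmb4os1, inside the gene of a subunit of the BK potassium channel, rose by 1.61 ± 0.28 in Neuro2a and 1.13 ± 0.17 in HippCulture, where Kcnmb4 rose by 0.98 ± 0.22 and 1.10 ± 0.13. Hopxos shared 24.8% and Kcnmb4os1 43.1% of its exon bases with its partner. With library totals the Neuro2a calls of Tomm6os (0.25, edgeR adjusted p = 0.28) and Kcnmb4os1 (0.42, edgeR adjusted p = 0.18) were lost, Kcnmb4 turned to -0.21 there, and Prickle4 was not called in HippCulture (0.36).

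Ict1os lies inside Mrpl58, the gene of a peptidyl-tRNA hydrolase of the mitochondrial ribosome, but shares only 2 exon bases with it. It rose in Neuro2a from 4.51, 3.50 and 3.57 to 13.8, 11.9 and 13.1 normalized CPM (1.74 ± 0.18), with Mrpl58 at 1.88 ± 0.09. Abhd11os, which overlaps the tail of a gene of a mitochondrial hydrolase, had 1.09, 0.802 and 1.25 normalized CPM before and 3.91, 2.46 and 2.87 after in Neuro2a (1.57 ± 0.33), and Abhd11 rose by 1.64 ± 0.11. Banf2os rose from 19, 12 and 26 to 23, 23 and 31 counts in Neuro2a, which TMM scaled to a log2 ratio of 1.74 ± 0.33. Its partner Banf2 was not tested, since no library held more than 2 counts of it. Taco1os, head to head with a gene of mitochondrial translation, rose in HippCulture by 1.05 ± 0.29, a call lost without the third irradiated sample (edgeR adjusted p = 0.0725). The calls of Dnah2os (1.59 ± 0.56 in Neuro2a) and Efhd1os (1.25 ± 0.47 in HippCulture) rested on at most 12 counts per library and were lost with the test of DESeq2, at adjusted p of 0.063 and 0.14. With library totals the calls of Abhd11os (0.39, edgeR adjusted p = 0.29), Banf2os (0.55, edgeR adjusted p = 0.14) and Dnah2os (0.42, edgeR adjusted p = 0.49) in Neuro2a and of Taco1os (0.52, edgeR adjusted p = 0.18) and Efhd1os (0.73, edgeR adjusted p = 0.25) in HippCulture were lost as well.

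A list of developmental transcription factors held the partners of 7 members (Emx2os, Hnf1aos1, Lhx1os, Six3os1, Vax2os, Zeb2os and Zfhx2os). Of these Vax2os and Zfhx2os were called decreased out of 6 tested in Neuro2a (33.3%, with 33% of all genes). In HippCulture 0 of 3 were called, where 25.9% of all genes decreased and 26.1% increased. Most exon bases of Zfhx2os lie in other genes. The list is not complete, since it lacks the partners of Prox1os and Dmrta2os, for example. Another 4 members held a small RNA gene on their own strand. Epb41l4aos rose in both cell types, and Rab26os, which holds Snord60, rose in Neuro2a by 0.99 ± 0.21 (-0.20 and not called with library totals) and had 0.14 ± 0.26 in HippCulture. Dnm3os, the precursor of miR-199a-2 and miR-214, fell by 1.39 ± 0.22 in Neuro2a and 1.598 ± 0.49 in HippCulture, where the call was lost without the third irradiated sample (edgeR adjusted p = 0.091). Tmcc3os was not called in Neuro2a and not tested in HippCulture.

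Members were then divided by their arrangement to the partner. Of the members inside the partner 13 of 51 decreased (25.5%) and 6 increased (11.8%) in Neuro2a, and 14 of 58 decreased (24.1%) and 4 increased (6.90%) in HippCulture, with medians of -0.44 and -0.42. Of those overlapping head to head 3 of 36 decreased (8.33%) and 5 increased (13.9%) in Neuro2a, and 1 of 32 decreased (3.12%) and 8 increased (25%) in HippCulture, with medians of 0.26 and 0.03. Beside all genes, with 33% decreased and 28.9% increased in Neuro2a and 25.9% and 26.1% in HippCulture, the share decreased among the members inside the partner was below the background in Neuro2a and near it in HippCulture, and that of the members overlapping head to head was below it in both. With scaling by library totals the medians were -1.59 and -0.96 for the members inside the partner. They were -0.91 and -0.51 for the members overlapping head to head. Such scaling moves all genes of a cell type by about the same amount. The order of the medians could therefore hardly change, and that it stayed the same is no further evidence. Members that overlap the partner tail to tail had medians of -0.31 and -0.29, with 5 of 17 (29.4%) and 7 of 18 (38.9%) decreased. For the members with bodies apart head to head the medians were 0.21 in Neuro2a, -0.98 with library totals, and -0.32 in HippCulture. Relative to the median of all genes, members inside the partner stood at -0.30 and -0.38 and members overlapping head to head at 0.41 and 0.08.

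**Figure D1:**
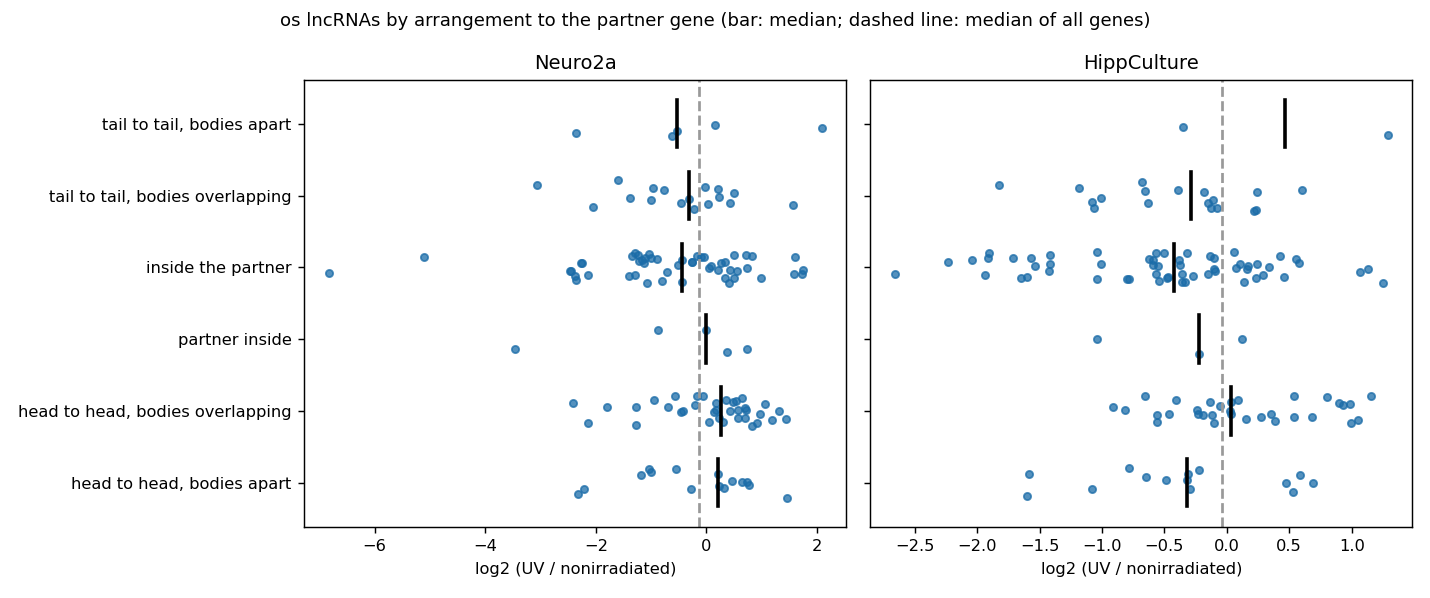
Log2 ratio of irradiated to nonirradiated samples (x axis) for each tested os lncRNA (points), by its arrangement to the partner gene (y axis), in Neuro2a and HippCulture. Bars are medians and the dashed line is the median of all genes tested. Members inside the partner had medians of -0.44 and -0.42 and reached further to the left than those overlapping head to head (0.26 and 0.03). With library totals the medians were -1.59 and -0.96 inside the partner and -0.91 and -0.51 overlapping head to head.

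Members with a CpG-rich start had a median log2 ratio of 0.22 in Neuro2a (42 tested, 8 decreased, 6 increased) and 0.04 in HippCulture (39 tested, 4 decreased, 9 increased). The remaining members had medians of -0.25 (87 tested, 18 decreased, 8 increased) and -0.38 (88 tested, 22 decreased, 6 increased). Over all genes the medians were -0.04 and 0.05 with a CpG-rich start and -0.27 and -0.17 without, so the same order was present outside the members. Of all genes with a CpG-rich start 33.2% decreased and 33.3% increased in Neuro2a and 25.3% and 30.9% in HippCulture, and without one 32.9% and 24.1% in Neuro2a and 26.6% and 20.8% in HippCulture. For the members these shares were 19.0% and 14.3% in Neuro2a and 10.3% and 23.1% in HippCulture with a CpG-rich start, and 20.7% and 9.20% in Neuro2a and 25% and 6.82% in HippCulture without one. These medians are on the TMM scale.

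Members were also divided by the share of exon bases that lie in another gene. Those that share none had a median of -0.98 in Neuro2a, where of 26 tested 7 decreased (26.9%) and 3 increased (11.5%). In HippCulture their median was -1.005, and of 27 tested 7 decreased (25.9%) and 1 increased (3.70%). Members sharing up to 20% had medians of -0.03 and -0.24, and those sharing more had medians of -0.01 and -0.13. Other antisense genes that share no exon base had medians of -2.36 and -1.25, and 53.6% and 36.4% of them decreased, whereas those sharing over 20% stood at -0.12 and 0.01. All genes without a shared base were at -0.23 and -0.11. The members without shared bases had few counts, with a median of 10.5 per nonirradiated library in Neuro2a and 6.33 in HippCulture. Those sharing over 20% had 19.7 and 33. The part of these counts, and of the filter on nonirradiated samples, in this pattern was not tested.

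**Figure D2:**
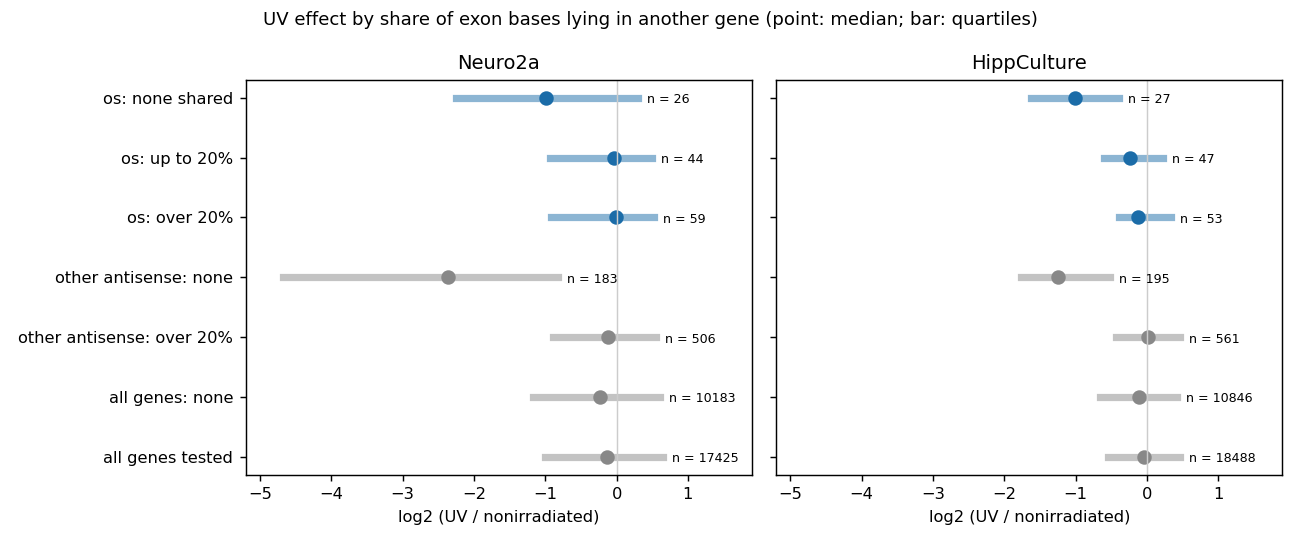
Median (point) and quartiles (bar) of the log2 ratio of irradiated to nonirradiated samples (x axis) for os lncRNAs (blue) and comparison groups (grey), by the share of exon bases that lie in another gene (y axis), in both cell types. Os lncRNAs that share no base had medians of -0.98 and -1.005, those sharing over 20% had -0.01 and -0.13, and other antisense genes without shared bases lay at -2.36 and -1.25.

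Partner genes were compared in the same fits. Of 126 distinct partners tested in Neuro2a 46 decreased (36.5%) and 33 increased (26.2%), and of 129 in HippCulture 47 decreased (36.4%) and 29 increased (22.5%). Over all protein-coding genes 31.5% decreased and 33.3% increased in Neuro2a, and 24.9% and 30.9% in HippCulture. To ask whether a member responded otherwise than its partner, the counts of both were taken from the same library, so that the scaling of libraries drops out, and the change of their ratio after UV was tested with edgeR over all pairs of a noncoding gene and a protein-coding gene on the opposite strand. In Neuro2a the lncRNA fell relative to its partner in 14 of 125 os pairs (11.2%) and rose in 12 (9.60%), against 16.8% and 11.4% of 2077 pairs. In HippCulture 9 of 125 os pairs were lower (7.20%) and 9 higher (7.20%), against 8.31% and 5.95% of 2237 pairs. Pairs that share exon bases cannot move fully apart in such counts. Of the os pairs sharing none 8 of 34 were lower (23.5%) and 3 higher (8.82%) in Neuro2a, against 32.4% and 11.3% of the 719 such pairs of the genome. In HippCulture 6 of 36 were lower (16.7%) and 1 higher (2.78%), against 17.2% and 6.11% of 737 pairs. Without the second irradiated sample of Neuro2a the pairs with a higher lncRNA dropped from 12 to 7. Among pairs with a lower lncRNA in HippCulture, 9 became 5 without the second nonirradiated sample and 3 without the second or the third irradiated sample. In HippCulture limma on log2 ratios called 2 os pairs lower and 5 higher, and with the replicate number as a block it called 0 lower and 0 higher. Under that block no HippCulture difference given below was called, which includes those of Cep83os, Phtf1os and Tmem147os. Nor were those of Ino80dos (1.08, limma adjusted p = 0.11), Ppp2r2cos (-1.68, 0.078), Epb41l4aos (1.29, 0.11), Rsf1os2 (1.01, 0.12), Sp3os (1.21, 0.083) and Zfhx2os (0.82, 0.12) called.

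**Figure D3:**
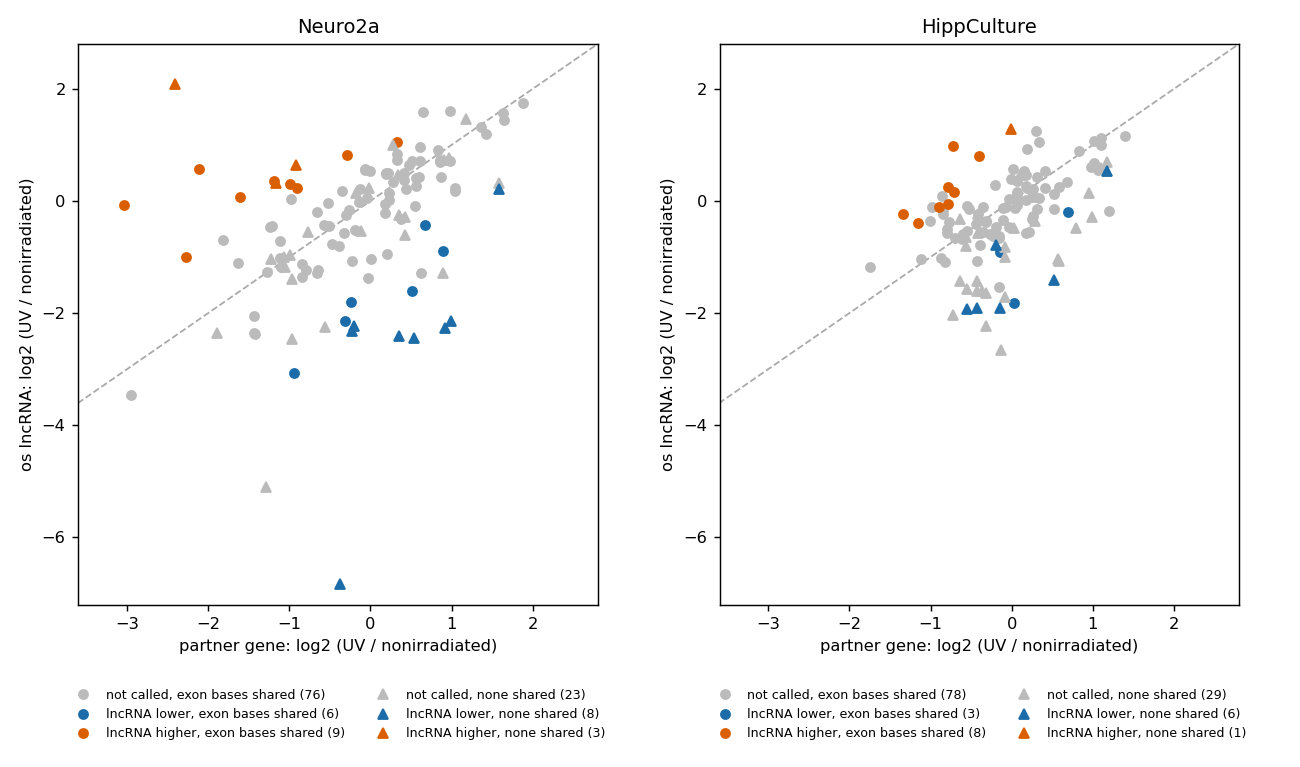
Log2 ratio of irradiated to nonirradiated samples of each os lncRNA (y axis) against that of its partner gene (x axis) in Neuro2a and HippCulture; the dashed line marks equal change. Circles are pairs that share exon bases and triangles pairs that share none, in blue (14 and 9 pairs) where the lncRNA fell and in orange (12 and 9 pairs) where it rose relative to the partner at an adjusted p under 0.05; the lowest point in Neuro2a is Ppp2r2cos, whose fitted value is set by 0 counts after UV.

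The pair of Cep83os and Cep83, a gene of the distal appendages of centrioles, starts from both sides of the 77 bases given above, with no exon base in common. Of the exon bases of Cep83os 5.24% lie in Gm49167, which was not called in either cell type. In Neuro2a Cep83os had 47.0, 60.4 and 61.1 normalized CPM in nonirradiated and 10.6, 11.1 and 11.9 in irradiated samples, a log2 ratio of -2.33 ± 0.14 (edgeR adjusted p = 8.5e-09). Cep83 had 32.9, 28.8 and 28.6 before and 27.9, 24.6 and 24.2 after (-0.23 ± 0.11, edgeR adjusted p = 0.089, and 0.034 with the replicate number as a block). Each irradiated sample of Cep83 was below each nonirradiated one. With at least 10 counts in every sample Cep83 was called decreased (-0.37, edgeR adjusted p = 0.0096). With library totals Cep83 was called decreased in Neuro2a (-1.42) and in HippCulture (-0.74). Per 100 counts of Cep83 there were 143, 209 and 214 counts of Cep83os before and 38.0, 45.0 and 49.2 after UV. The difference between the 2 genes was -2.09 ± 0.21 on the log2 scale (edgeR, smallest p of the decreases among os pairs). In HippCulture Cep83os fell from 7.07, 8.37 and 7.56 to 4.26, 4.23 and 4.78 (-0.78 ± 0.18), and the difference from Cep83 was -0.60 ± 0.17 (edgeR adjusted p = 0.030).

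Ino80dos and Ino80d, the gene of a subunit of the INO80 chromatin remodeller, overlap head to head and differed in the other direction. Ino80d fell in Neuro2a from 54.6, 52.5 and 57.9 to 7.81, 6.37 and 5.74 normalized CPM (-3.04 ± 0.13, edgeR adjusted p = 1.7e-09). Ino80dos had 22.003, 21.5 and 21.4 before and 22.7, 17.5 and 21.7 after, with overlapping groups (-0.07 ± 0.12). The difference was 2.97 ± 0.16 in Neuro2a and 1.12 ± 0.15 in HippCulture, where Ino80d fell by 1.33 ± 0.13. With library totals Ino80dos was called decreased in Neuro2a (-1.26) and in HippCulture (-0.77), while the difference does not depend on that scaling. In HippCulture Ino80dos was also called decreased with at least 10 counts in every sample (-0.32, edgeR adjusted p = 0.040). Ino80dos shares 431 of its 2880 exon bases with Ino80d and others with Ndufs1, whose log2 ratios were 0.08 ± 0.10 and 0.07 ± 0.09.

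Phtf1os fell from 13.1, 16.0 and 15.2 to 3.72, 4.31 and 4.72 normalized CPM in Neuro2a (-1.79 ± 0.18), and Phtf1 had a log2 ratio of -0.24 ± 0.13 (edgeR adjusted p = 0.12, and 0.021 with the replicate block). With library totals Phtf1 was called decreased in Neuro2a (-1.43) and in HippCulture (-0.69). With at least 10 counts in every sample it was called decreased in Neuro2a (-0.37, edgeR adjusted p = 0.024). The difference between the 2 genes was -1.55 ± 0.19 in Neuro2a and -0.77 ± 0.18 in HippCulture. Of the exon bases of Phtf1os 63.0% were shared, 448 with Phtf1 and the rest with Rsbn1. Rsbn1 fell by 1.4995 ± 0.12 in Neuro2a and 0.98 ± 0.12 in HippCulture, close to Phtf1os itself, and the part of its reads in the count of Phtf1os was not tested.

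Sp3os and Rsf1os2 had higher ratios than their partners. Sp3, the gene of a transcription factor of GC boxes, fell by 1.19 ± 0.10 in Neuro2a and 0.40 ± 0.11 in HippCulture. Sp3os had 2.64, 3.64 and 3.84 before and 3.35, 4.93 and 4.72 normalized CPM after UV in Neuro2a, and rose in HippCulture from 2.90, 2.69 and 2.78 to 3.69, 5.84 and 5.29 (0.80 ± 0.23). The differences from Sp3 were 1.55 ± 0.24 and 1.19 ± 0.21. Rsf1, the gene of a chromatin spacing factor, fell by 0.90 ± 0.10 and 0.79 ± 0.10, and Rsf1os2 had log2 ratios of 0.23 ± 0.18 and 0.24 ± 0.20, with differences of 1.13 ± 0.19 and 1.03 ± 0.18. With library totals the log2 ratios of Sp3os and Rsf1os2 in Neuro2a were -0.84 and -0.96 and the HippCulture call of Sp3os was lost (0.26, edgeR adjusted p = 0.44), while the differences do not depend on that scaling. Rsf1os2 shares 7.39% of its exon bases, in part with Clns1a, which rose by 0.78 ± 0.09 and 0.33 ± 0.10 with TMM and stood at -0.41 and -0.22 with library totals.

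Epb41l4a fell in Neuro2a from 10, 15 and 17 counts to 1 in each irradiated library while Epb41l4aos rose, a difference of 4.42 ± 0.49. In HippCulture Epb41l4a had 11.4, 12.5 and 12.8 normalized CPM before and 11.9, 13.1 and 11.6 after, and the difference was 1.31 ± 0.21. In HippCulture Ppp2r2c, the partner of Ppp2r2cos, had 311, 327 and 339 normalized CPM before and 274, 302 and 312 after (-0.14 ± 0.08). It was not called in the main fit (edgeR adjusted p = 0.16). With at least 10 counts in every sample (-0.23, edgeR adjusted p = 0.015) and with library totals (-0.69, edgeR adjusted p = 4.7e-05) it was called decreased. The difference of Ppp2r2cos from Ppp2r2c was -1.76 ± 0.27. Before UV there were 1.07 to 1.29 counts of Ppp2r2cos per 100 counts of Ppp2r2c. The part of Ppp2r2c intron reads in the count of Ppp2r2cos was not tested. Zfhx2os also differed from Zfhx2 in HippCulture (0.76 ± 0.16, edgeR adjusted p = 0.0034), but 95.2% of its exon bases lie in other genes, 3255 of 4453 of them in Zfhx2, so that its own reads cannot be told apart. With limma on log2 ratios that difference was not called (adjusted p = 0.064).

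**Figure D4:**
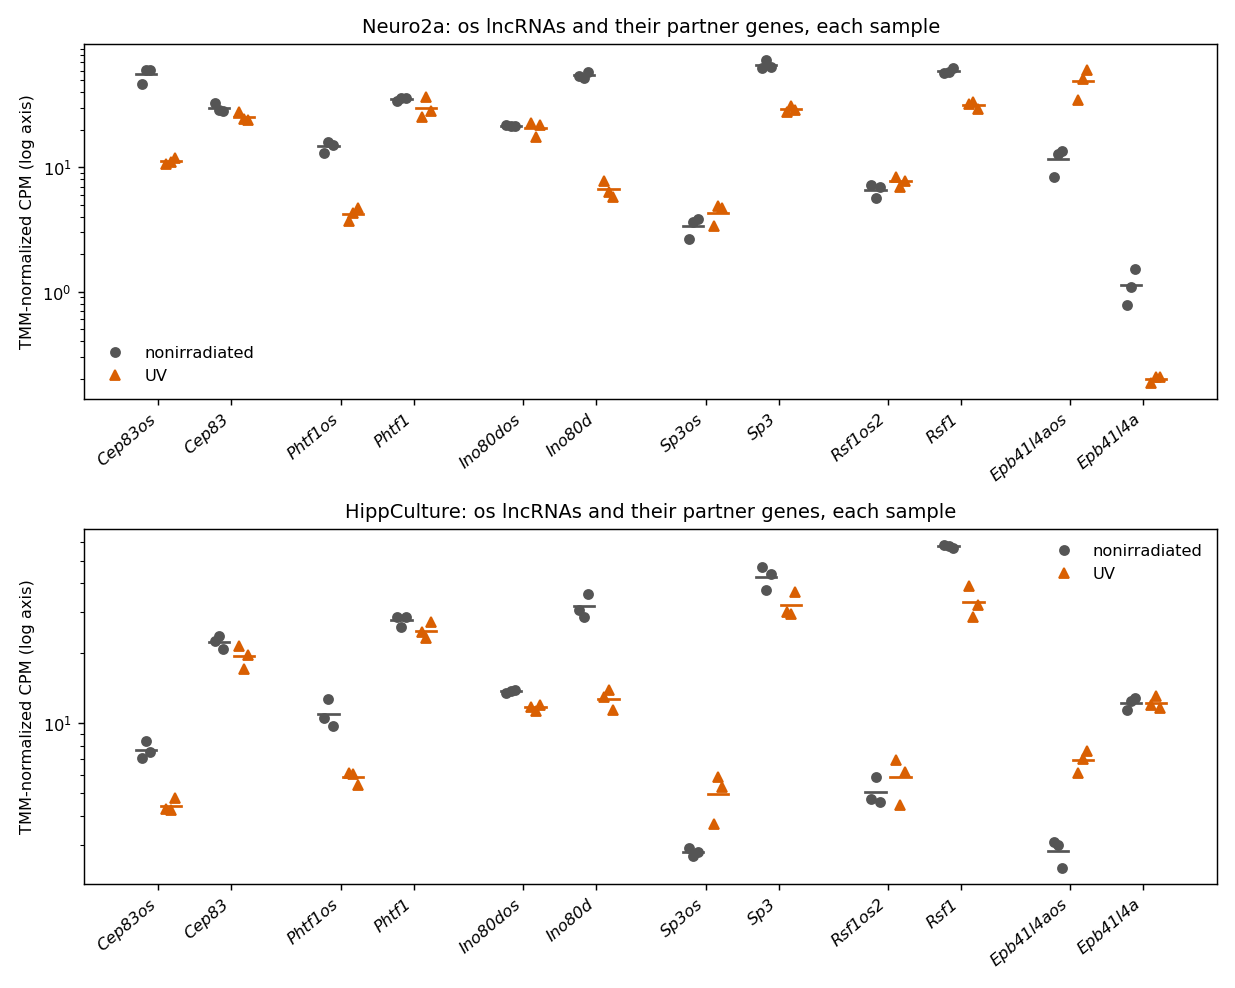
Normalized CPM (log axis) in each nonirradiated (grey circles) and irradiated (orange triangles) sample of 6 os lncRNAs and their partner genes, with the group means as lines, in Neuro2a (top) and HippCulture (bottom). Cep83os lies at 47.0 to 61.1 before and 10.6 to 11.9 after UV in Neuro2a. Cep83 lies between 24.2 and 32.9 over both groups, with each irradiated sample below each nonirradiated one. For Ino80dos it is the partner that falls further.

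Of the other head-to-head pairs shown by sequence, Tmem147os differed from Tmem147, the gene of a membrane protein of the endoplasmic reticulum, in both cell types. Tmem147 rose by 1.59 ± 0.11 in Neuro2a, where the lncRNA had 1.32, 2.04 and 1.96 before and 1.67, 2.05 and 2.46 normalized CPM after UV, and the difference was -1.37 ± 0.32. In HippCulture both rose with TMM, the lncRNA at -0.017 with library totals, and the difference was -0.63 ± 0.16. This gene is ENSMUSG00000097320.8, and a second gene with the same symbol shares all of its exon bases with other genes. Brip1os, opposite the gene of a DNA helicase of repair, decreased in both cell types (-0.55 ± 0.11 and -0.32 ± 0.11), with 20.2% of its exon bases in Med13 or Ints2, and the difference from Brip1 was not called. Its HippCulture call was lost without the first or the third nonirradiated or the third irradiated sample (highest edgeR adjusted p = 0.16) and with the test of DESeq2 (adjusted p = 0.061). Med9os rose in Neuro2a (1.46 ± 0.57, with overlapping groups) together with Med9 (1.18 ± 0.10), a gene of the Mediator complex. The call of Med9os was lost in 4 of 6 fits without 1 sample and with library totals (0.29), where Med9 stood at -0.014. Fam120aos and Fam120a both fell in Neuro2a, by 1.01 ± 0.36 and 1.07 ± 0.10, and the call of Fam120aos was lost without the first nonirradiated or the third irradiated sample (highest edgeR adjusted p = 0.11). Stam, a gene of endosomal sorting, fell by 0.91 ± 0.10 in Neuro2a and Stamos had 0.65 ± 0.36, a called difference of 1.58 ± 0.37.

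Across cell types, 97 members were tested in both. Of these 13 decreased in both (13.4%) and 7 increased in both (7.22%), 0 were called in opposite directions, and 49 were called in neither (50.5%). Over the 14973 genes tested in both 21.4% decreased in both, 23.7% increased in both, 0.628% were called in opposite directions and 25.2% were called in neither. The log2 ratios had the same sign in 81 of 97 members (83.5%) and in 83.8% of all genes, with a Spearman's rho of 0.79 across the members, which are not independent replicates. The members decreased in both were Alkbh3os1, Brip1os, Cep83os, Dbhos, Dnm3os, Far1os, Hectd2os, Phtf1os, Plxna4os2, Ppp2r2cos, Rab10os, Srrm4os and Ube4bos1. Beside the limits given above for Alkbh3os1, Brip1os, Dnm3os and Plxna4os2, the HippCulture call of Ube4bos1 was lost without the third irradiated sample (edgeR adjusted p = 0.083), and the Neuro2a call of Far1os without the second nonirradiated or the second irradiated sample (highest edgeR adjusted p = 0.092). Those increased in both were Dhrs13os, Epb41l4aos, Junos, Kcnmb4os1, Proscos, Tomm6os and Uchl1os. With library totals Epb41l4aos was the only one of these 7 called increased in both. The calls of Dhrs13os in HippCulture and of Proscos in both were also lost without some single samples (highest edgeR adjusted p = 0.12 for each), and with the test of DESeq2 those of Dhrs13os, Junos and Proscos in HippCulture and of Proscos in Neuro2a were lost. Uchl1os, an antisense RNA known to raise the translation of the ubiquitin hydrolase Uchl1, rose by 1.32 ± 0.14 in Neuro2a and 0.90 ± 0.11 in HippCulture, and Uchl1 rose by 1.36 ± 0.11 and 0.83 ± 0.08 with TMM. With library totals neither gene was called in either cell type.

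The difference of the UV effect between the cell types was tested as an interaction in edgeR over the 14973 genes that passed in both. The ratio was lower in Neuro2a for 6 of 97 members (6.19%) and higher for 1 (1.03%), against 16.1% and 8.39% of all genes. Members had fewer counts than the median gene, which limits the differences that could be detected. The part of the counts in these lower shares was not tested. Cep83os had the smallest p, with a difference of -1.55 ± 0.24 (edgeR adjusted p = 1.3e-04), since its ratio was -2.33 in Neuro2a and -0.78 in HippCulture. Phtf1os (-0.89 ± 0.26) and Ube4bos1 (-0.81 ± 0.26), inside the gene of a ubiquitin chain elongation factor, were also lower in Neuro2a. The call of Ube4bos1 was lost in 3 of 12 fits without 1 sample and with the test of DESeq2 (adjusted p = 0.097). Srrm4os differed by -2.05 ± 0.68, a call that did not hold in 5 of 12 fits without 1 sample. For Ppp2r2cos the difference rests on 0 counts in irradiated Neuro2a, so its fitted size is no bound. Ict1os was the member with the higher ratio in Neuro2a (1.18 ± 0.33), a call lost without the second nonirradiated sample of HippCulture (edgeR adjusted p = 0.059) and with library totals (0.53, edgeR adjusted p = 0.22). Without the first irradiated sample of HippCulture 4 instead of 7 members were called.

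**Figure D5:**
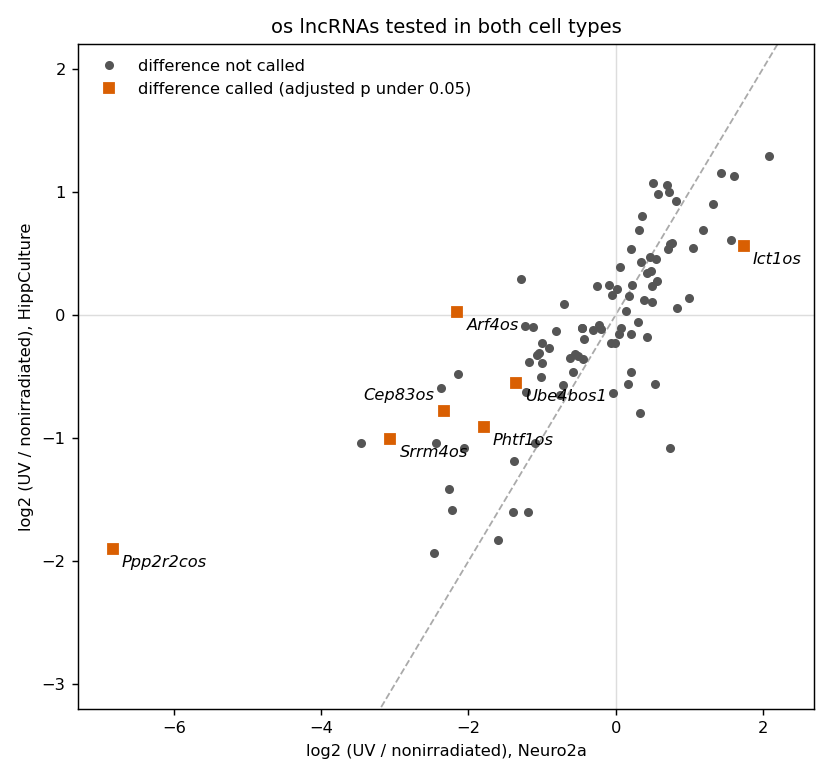
Log2 ratio of irradiated to nonirradiated samples in HippCulture (y axis) against Neuro2a (x axis) for the 97 os lncRNAs tested in both; the dashed line marks equal ratios. Orange squares mark the 7 members whose ratios differed between cell types at an adjusted p under 0.05, of which 6 lie to the left of the line; the axes differ in scale, and the value of Ppp2r2cos in Neuro2a is set by 0 counts after UV.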

How the data were processed

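RNA from Neuro2a and HippCulture was depleted of ribosomal RNA and sequenced from 3 irradiated and 3 nonirradiated samples each. The labels name a stranded TruSeq kit, and the methods name another TruSeq kit. The authors mapped reads with TopHat2 2.1.1 to mm10 and deposited raw counts per gene, made with featureCounts 1.6.1 on GENCODE M17 exons, with each read counted for every gene it overlapped and no strand option. The 12 human samples of the 24 in the series were not used here.

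Symbols and classes were matched by Ensembl ID to GENCODE M21 (99.8% of 53715 genes). Partners were found by symbol for 157 members and by a RefSeq synonym for 2. Counts were tested with edgeR 4.0.16 (R 4.3.3) by quasi-likelihood with TMM over genes with a mean of at least 0.5 CPM in the nonirradiated samples of the cell type, with Benjamini-Hochberg adjustment and a threshold of 0.05. The SE is the size of the log2 ratio over the square root of F. Pairs were fitted with 2 columns per library, the library as a factor and the interaction of role and UV, and noncoding genes other than members were paired with the nearest coding gene within 10000 bases on the other strand. The samples had 6910907 to 9163323 counts, and limits for counts of 0 (3 counts over a group) cover counting error only. Same-numbered samples deviated together in Neuro2a, with correlations of 0.291, 0.104 and 0.147 over genes. In HippCulture the correlations were 0.14, 0.073 and 0.057, and only 1 exceeded 0.1. The main fits left out the replicate number in both cell types, so their SEs and p-values take no account of such pairing. It entered only through the replicate block, as an alternative. No 2 libraries of a group agreed within sampling noise. The code was tested on simulated counts.

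Named genes are, per cell type, the 6 members with the most negative and the 6 with the most positive called log2 ratio without overlap of the groups, up to 6 with the smallest p of a called difference from the partner, up to 6 with a called interaction, their partners, the genes next to the 0.5 CPM limit and Rab10os; head-to-head pairs given by sequence, small RNA hosts and Uchl1os were added. The members, lists and tests were chosen with earlier results of these data known. Alternatives used DESeq2 1.42.0, limma 3.58.1, library totals, other filters, the replicate block and each sample left out. Sequences were read from GRCm38.p6, and the primers' own bases from the study's primer list. Other calculations used Python 3.11.15.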

Additional observations from a re-analysis of the deposited data

Results flagged for a closer look

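In 7 of the 97 os lncRNAs tested in both cell types the log2 ratio of irradiated to nonirradiated samples differed between Neuro2a and HippCulture by the interaction test of edgeR, at an adjusted p under 0.05. The difference, Neuro2a minus HippCulture, was -1.55 for Cep83os, -0.89 for Phtf1os, -0.81 for Ube4bos1 and 1.18 for Ict1os. It was -2.05 for Srrm4os, and -4.94 for Ppp2r2cos, whose size depends on 0 counts in irradiated Neuro2a. Arf4os, head to head with the gene of a small GTPase of the Golgi, had the largest p of the 7 (difference -2.17 ± 0.76, edgeR adjusted p = 0.042). It fell in Neuro2a from 12, 16 and 18 counts to 2, 0 and 2, and had 9, 11 and 16 counts before and 10, 6 and 8 after UV in HippCulture (log2 ratio 0.02 ± 0.39). The reasons for these differences were not tested.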

How the results depend on the processing

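With library totals in place of TMM the numbers of members called decreased and increased were 85 and 2 in Neuro2a and 55 and 5 in HippCulture, those of partners were 104 and 5 and 79 and 9, and 26 members had a called difference between cell types. In Neuro2a the log2 ratio then turned to -0.68 for Alkbh3, -0.97 for Hopx, -0.21 for Kcnmb4, -0.020 for Macrod2, -0.96 for Rsf1os2, -0.84 for Sp3os, -0.34 for Taco1 and -0.83 for Vax2, and in HippCulture to -0.53 for Alkbh3. Among members with at least 10 counts in every sample 8 decreased in Neuro2a and 14 in HippCulture. That filter takes in the irradiated samples, so it removes members that fall to few counts after UV, and fewer were tested. The test of DESeq2 called 17 decreased in HippCulture. Counting only members that share no exon base left 7 decreased and 3 increased in Neuro2a and 7 and 1 in HippCulture. Of the pairs, at least 10 counts of both genes, a filter of the same kind, left 2 with a lower lncRNA in Neuro2a and 5 in HippCulture. Pairs sharing no exon base gave 8 lower and 3 higher in Neuro2a and 1 higher in HippCulture. With limma on log2 ratios 2 pairs were lower and 5 higher in HippCulture.

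Leaving out 1 sample gave 23 to 25 members decreased and 12 to 15 increased in Neuro2a, and 16 to 28 and 12 to 16 in HippCulture. It gave 41 to 46 partners decreased and 31 to 32 increased in Neuro2a, and 39 to 47 and 26 to 34 in HippCulture. Called differences between cell types ranged from 4 to 8, pairs with a lower lncRNA from 12 to 15 in Neuro2a and 3 to 10 in HippCulture, and pairs with a higher lncRNA from 7 to 11 and 6 to 10. The replicate block gave 25 members decreased and 15 increased in Neuro2a and 26 and 16 in HippCulture, 9 called interactions, and 51 and 39 partners in Neuro2a and 49 and 32 in HippCulture. Beside Cep83 and Phtf1 in Neuro2a it changed no call of a gene picked by the naming rule, and among the genes added to them only that of Tmcc3 in HippCulture. In each cell type 6 of 6 samples were most like the other sample of their number. Limma with the replicate block called 10 pairs lower and 8 higher in Neuro2a, and 0 lower and 0 higher in HippCulture. The causes of these shifts were otherwise not tested.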
